A study of Homo sapiens with 9 samples.

Results

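Axon guidance ligand and receptor mRNAs were followed through pulldowns of 2 guidance receptors, DCC and neuropilin-1 (Nrp1). The members were every gene symbol in the count files that belongs to the neuropilins, plexins, semaphorins of classes 3 to 7, netrins and netrin-G proteins, DCC, neogenin and UNC5 receptors, slits, robos, slit-robo GTPase-activating proteins (srGAPs), ephrins or Eph receptors, together with DSCAM and L1CAM. They were taken by symbol alone, whatever their counts, and came to 77 of the 42785 genes in the files. They fell into 2 neuropilins, 9 plexins, 7 secreted class 3 semaphorins, 13 membrane-attached semaphorins, 7 netrin receptors with DSCAM among them, 6 netrins, 3 slits, 4 robos, 3 srGAPs, 8 ephrins, 14 Eph receptors and L1CAM.

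Guidance cues steer growing axons by attracting or repelling the growth cone. Netrins act through DCC, neogenin and UNC5 receptors, class 3 semaphorins through neuropilins paired with plexins, most other semaphorins directly through plexins, slits through robos, and ephrins through Eph receptors on neighbouring cells. Receptors of these families also hand the signal to small GTPases and the cytoskeleton, and some are known to associate with ribosomes and mRNAs, which is what the pulldowns address.

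All libraries came from SH-SY5Y, a human neuroblastoma cell line with features of immature sympathetic neurons, grown in serum-containing medium, with no cue, transgene or knockdown named. RNA that came down on magnetic beads carrying a mouse antibody to DCC (DCC-IP) or a rabbit antibody to Nrp1 (Nrp1-IP) was sequenced beside RNA of the lysate (Input), in 3 libraries per group. The comparisons ask which of the mRNAs that accompany one receptor differ from those that accompany the other, and how each pulldown differs from the cells' own RNA. A library from control antibody or bare beads was not analysed here, so these counts hold no measure of what binds the beads alone. The line is a single cell line, and the labels do not say whether the 3 libraries of a group came from separate cultures, so the p-values measure only the spread between these libraries.

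The libraries held 8838296 to 11055895 reads on genes. MAP1B, which encodes a microtubule-associated protein, took 49.6%, 52.1% and 40.3% of these reads in DCC-IP replicates 1, 2 and 3 and 1.58% to 2.44% in the other 6 libraries. Genes with at least 1 read numbered 8169, 11613 and 11937 in Input, 6652, 9036 and 11259 in DCC-IP and 9389, 9787 and 12240 in Nrp1-IP, so that DCC-IP replicate 1 was the least diverse library. Of 20 neuroblastoma and sympathetic neuron markers, 18 had a read in at least 1 library, with tyrosine hydroxylase (TH) and peripherin (PRPH) at 0 in every library. Only 6 had over 3 counts in all 9 libraries, and 7, 10 and 11 did in every DCC-IP, Nrp1-IP and Input library. The summed level of the 20 was 7547 to 7944 CPM (read counts scaled to a common total of reads on genes) in DCC-IP, 3442 to 4533 CPM in Nrp1-IP and 5274 to 5874 CPM in Input. Markers of glia (2 of 7 with a read, S100B, GFAP and SOX10 at 0, at most 2.60 CPM in sum), blood (1 of 5) and epithelium (1 of 4) were at or near 0. Fibroblast markers (5 of 7 with a read, COL1A2 and COL3A1 at 0) summed to 1.63 to 7.51 CPM in DCC-IP, 6.38 to 18.0 CPM in Nrp1-IP and 4.97 to 11.4 CPM in Input, and their part in the results was not tested.

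Most guidance mRNAs had few reads in these libraries, although a smaller share of them than of all genes had no read. A level in the lysate is a mean over cells, so fewer cells carrying an mRNA and less of it per cell cannot be told apart. A member was taken as present in a library with over 3 counts, a floor that corresponded to 0.271 to 0.339 CPM and covers counting error only, since PCR copies were not told apart. Of the 77 members, 23 (29.9%) had no read in any of the 9 libraries, against 59.4% of all genes. Another 14 had a read but never over 3 in a library, and 40 passed the floor at least once. In all 9 libraries the floor was passed by 9 members, namely the ephrins EFNA2, EFNA4 and EFNA5, the plexin PLXNA4, the semaphorins SEMA3C and SEMA4D, SLIT2, ROBO1 and SRGAP1.

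Present in all 3 libraries of a group were 12 members in DCC-IP (15.6%, against 9.41% of all genes), 19 in Nrp1-IP (24.7%, against 13.8%) and 16 in Input (20.8%, against 11.6%). The order of the groups was that of all genes. DCC-IP replicate 1 set the lower number of its group: it had 12 members over the floor, against 22 and 29 in replicates 2 and 3, and without it 21 members were present in every DCC-IP library. The 5 members present in every Nrp1-IP and Input library but not in every DCC-IP library were EPHB2, NRP1, PLXNC1, SEMA3A and SEMA5A, and each of them was over the floor in DCC-IP replicates 2 and 3.

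**Figure D1:**
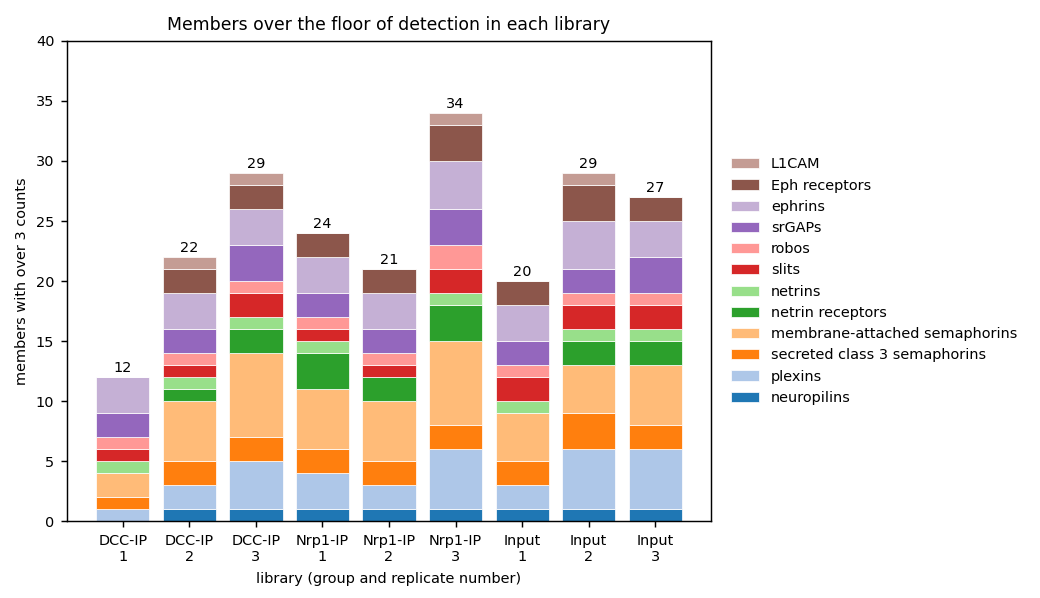
Stacked bars give the number of the 77 members with over 3 counts in each of the 9 libraries, coloured by family. The total runs from 12 in DCC-IP replicate 1 to 34 in Nrp1-IP replicate 3, with 20 to 29 in Input, and libraries of one group differ widely.

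Reads of the members were concentrated on a handful of genes. EFNA5, SEMA4D, SRGAP1, EFNA2 and ROBO1 together held 95.4% to 99.1% of all member reads in each library. Members took 0.281%, 0.290% and 0.283% of the reads on genes in DCC-IP replicates 1 to 3, 0.515%, 0.647% and 0.465% in Input, and 0.605%, 0.767% and 0.664% for Nrp1-IP. Summed, that was 2849 ± 46.9 CPM in DCC-IP, 6788 ± 816 CPM in Nrp1-IP and 5423 ± 940 CPM in Input (mean ± SD, n = 3), with all 3 DCC-IP libraries below the rest. With MAP1B left out of the library totals the same sums were 5462 ± 662, 6934 ± 836 and 5540 ± 970 CPM, and DCC-IP no longer stood below Input. The other 72 members summed to 84.4 ± 44.2 CPM in DCC-IP, 95.9 ± 29.1 CPM in Nrp1-IP and 105 ± 21.2 CPM in Input, ranges that overlap. Shares of all reads in DCC-IP depend on MAP1B. Levels given from here on are CPM scaled by the trimmed mean of M-values (TMM), unless stated. The TMM factors were 0.803, 1.13 and 1.39 in DCC-IP replicates 1 to 3 and 0.726, 0.834 and 0.900 in Input. Scaling by them left MAP1B in the totals. For EFNA5 the means in DCC-IP and Input were 1256 and 3761 CPM before TMM scaling and 1121 and 4621 CPM after it. No level is compared between genes, since transcript lengths were not used.

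Scatter between libraries of one group was wide for the scarcer members. Of the 29 members with at least 10 counts in some DCC-IP library, 15 (51.7%) had no read in another DCC-IP library. Of the 8891 genes with as many counts there, 39.6% did so. The same was seen for 7 of 28 members (25.0%, against 23.9% of such genes) in Nrp1-IP and 12 of 29 (41.4%, against 28.2%) in Input. SEMA5B, a transmembrane semaphorin, had 0, 2 and 122 counts in DCC-IP and is 1 example. SEMA4F, of a related class, had 0, 24 and 1 counts in Input and 0, 0 and 27 in Nrp1-IP.

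**Figure D2:**
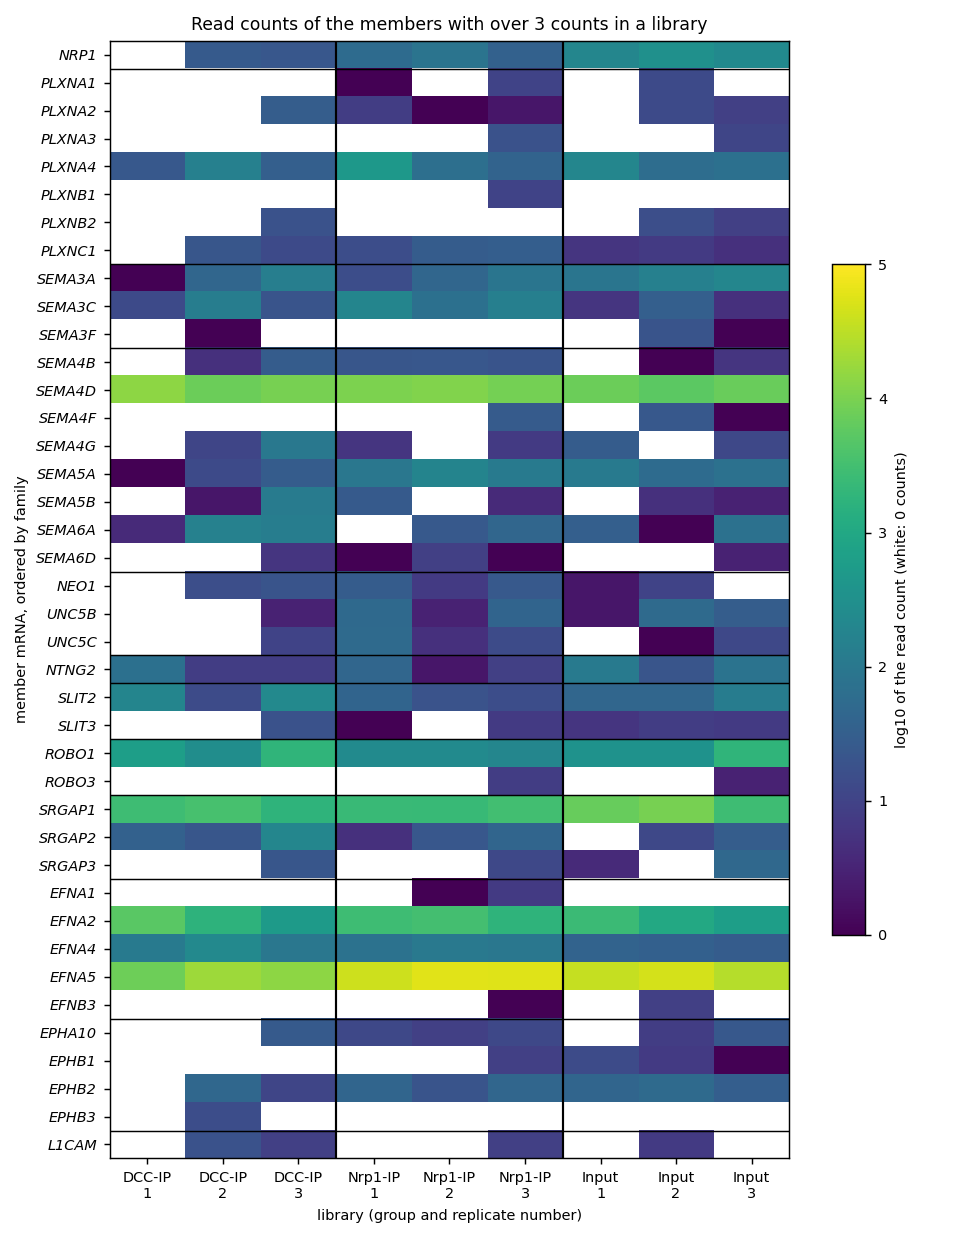
Each row is one of the 40 members with over 3 counts in some library and each column 1 of the 9 libraries, with the colour giving the read count on a log10 scale and white marking 0 counts. Bright rows are EFNA5, SEMA4D, SRGAP1, EFNA2 and ROBO1, and most other rows hold white cells next to filled cells of the same group.

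Few members passed a test between groups. The 3 comparisons share libraries, so they are not independent of each other. Between Nrp1-IP and DCC-IP, 20 members had enough reads to be tested and 1 (EFNA5, higher in Nrp1-IP) passed at a Benjamini-Hochberg adjusted p under 0.05 in edgeR's quasi-likelihood test over 6439 genes, 3.65% of which passed. Between DCC-IP and Input, 1 of 20 members (EFNA5, lower in DCC-IP) passed, against 4.98% of 6223 genes. Between Nrp1-IP and Input, 1 of 22 members (NRP1, lower in Nrp1-IP) passed, against 4.97% of 6501 genes. The shares of members are near those of all genes tested.

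Without adjustment, p was under 0.05 for 4 members between Nrp1-IP and DCC-IP (17.4% of all genes tested), for 4 between DCC-IP and Input (22.0%) and for 6 between Nrp1-IP and Input (21.6%). The scaled values of the 3 libraries of one group all lay above those of the other for 3 members between Nrp1-IP and DCC-IP (26.5% of all genes tested), 7 between DCC-IP and Input (33.3%) and 9 between Nrp1-IP and Input (31.5%). The median log2 fold change of the members tested was 0.61 for Nrp1-IP over DCC-IP, -0.23 for DCC-IP over Input and 0.11 for Nrp1-IP over Input, beside -0.27, 0.16 and 0.06 over all genes tested. The median standard error of a member's log2 fold change was 1.19, 1.30 and 0.80 in the same order, so most members were measured with a wide error. Other scalings moved the median of all genes to between -0.11 and -0.02, between 0.00 and 0.48, and between -0.13 and 0.44 in the 3 comparisons, and the 3 calls named above kept their direction under each.

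**Figure D3:**
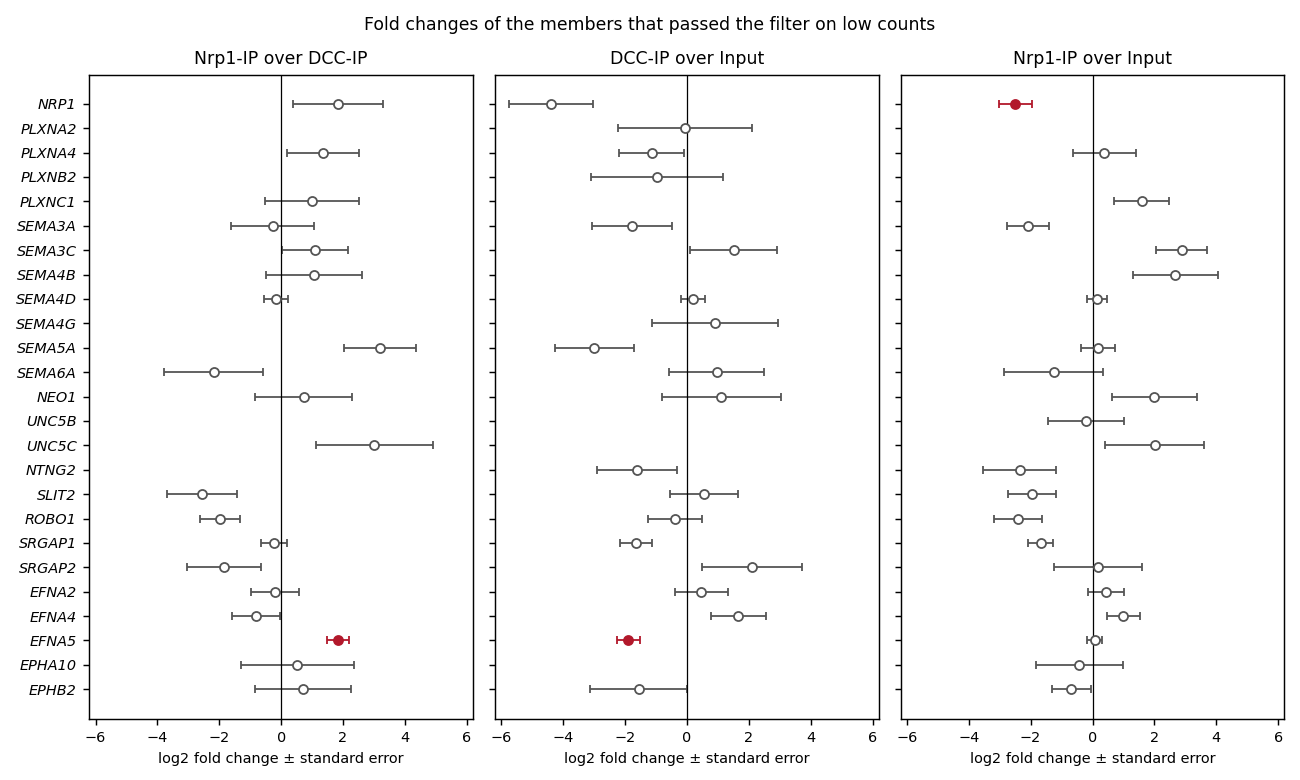
Points give the log2 fold change of each member tested and bars its standard error, in 1 panel per comparison, with filled red points for an adjusted p under 0.05. EFNA5 is filled in the first 2 panels and NRP1 in the last, and the bars of most other members are wide.

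Among the ephrins, membrane-bound ligands of Eph receptors, EFNA5 carried the difference between the pulldowns. It had 36511, 47792 and 27481 counts in Input, 8044, 18238 and 14387 in DCC-IP and 41504, 59209 and 57756 in Nrp1-IP. On the TMM scale all 3 DCC-IP libraries were the lowest, while Nrp1-IP and Input overlapped. Its level was 1121 ± 296 CPM in DCC-IP, 4556 ± 809 CPM in Nrp1-IP and 4621 ± 1125 CPM in Input (SD, n = 3). The gap was smaller in CPM without TMM factors and with MAP1B left out of the library totals. On that scale EFNA5 was at 2406 ± 1000 CPM in DCC-IP, 5257 ± 827 CPM in Nrp1-IP and 3843 ± 898 CPM in Input. There DCC-IP replicate 2 lay above Input replicate 3, so DCC-IP and Input overlapped, while DCC-IP stayed below Nrp1-IP. EFNA5 was 3.57-fold higher in Nrp1-IP than in DCC-IP, a log2 fold change of 1.84 with a standard error of 0.35 (adjusted p = 0.0204). It was lower in DCC-IP than in Input, at a log2 fold change of -1.89 with a standard error of 0.37 (adjusted p = 0.0260), and for Nrp1-IP over Input the log2 fold change was 0.08 with a standard error of 0.24 (adjusted p = 0.894).

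The EFNA5 difference kept its direction with every library left out, but not always its call. For Nrp1-IP over DCC-IP the adjusted p rose to 0.130 without Nrp1-IP replicate 2 and to 0.0562 without Nrp1-IP replicate 3, and it stayed under 0.05 in the other 4 fits. For DCC-IP over Input it was 0.118, 0.141 and 0.0858 without DCC-IP replicates 1, 2 and 3, 0.120 and 0.0981 without Input replicates 1 and 2, and 0.0115 without Input replicate 3. The call against Input was also lost with MAP1B removed from the table (log2 fold change -1.66, adjusted p = 0.0626). With the replicate number as a block, which treats same-numbered DCC-IP and Input libraries as pairs, the log2 fold change was -1.92 (adjusted p = 0.00273). EFNA5 made up 26.0%, 56.9% and 49.0% of member reads in DCC-IP replicates 1 to 3, 70.6% to 79.5% in Nrp1-IP and 66.4% to 73.5% in Input.

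EFNA2 spread widely within groups. Its counts were 2553, 1047 and 648 in Input, 5190, 1723 and 531 in DCC-IP and 2853, 3193 and 1796 in Nrp1-IP. Replicate 1 was the highest in DCC-IP and in Input, the groups overlapped, and the adjusted p was 0.721 to 0.947 in the 3 comparisons. EFNA4 had 39, 34 and 28 counts in Input, 110, 222 and 95 in DCC-IP and 76, 106 and 94 in Nrp1-IP. Each pulldown library lay above each Input library (12.3 ± 5.6 CPM in DCC-IP, 7.97 ± 1.55 CPM in Nrp1-IP and 4.2 ± 0.767 CPM in Input), yet neither comparison with Input passed the test (adjusted p = 0.320 and 0.316). DCC-IP over Input passed for EFNA4 when at least 10 counts were required in every library. The remaining ephrins EFNA1, EFNA3, EFNB1, EFNB2 and EFNB3 had at most 9 counts in a library.

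The Eph receptors, the tyrosine kinases that ephrins bind, were nearly absent. Of 14 genes, EPHA3, EPHA4, EPHA5, EPHA6, EPHA7 and EPHB6 had no read in any library. EPHB2 led the family with 43, 53 and 31 counts in Input, 0, 47 and 11 in DCC-IP and 42, 20 and 45 in Nrp1-IP. EPHA10, a family member thought to lack kinase activity, had 0, 8 and 24 counts in Input, 0, 0 and 26 in DCC-IP and 12, 9 and 12 in Nrp1-IP. Only these 2 were tested, with an adjusted p of 0.589 or more in every comparison. EPHB1 and EPHB3 reached 14 and 15 counts in 1 library each, and EPHA1, EPHA2, EPHA8 and EPHB4 never exceeded 3.

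NRP1 encodes the receptor that the Nrp1 antibody was raised against, and its own mRNA was lower in the Nrp1 pulldown than in the lysate. NRP1 had 198, 320 and 234 counts in Input, 0, 26 and 23 in DCC-IP and 55, 83 and 36 in Nrp1-IP. The 3 groups did not overlap on the TMM scale, with Input highest and DCC-IP lowest (1.22 ± 1.09 CPM in DCC-IP, 5.16 ± 2.47 CPM in Nrp1-IP, 31.0 ± 6.46 CPM in Input). The order of the pulldowns depended on the scale. Without TMM factors and with MAP1B left out of the totals, DCC-IP replicates 2 and 3 lay above Nrp1-IP replicate 3. Input stayed above every pulldown library there. Nrp1-IP over Input gave a log2 fold change of -2.49 with a standard error of 0.52 (adjusted p = 0.0395). DCC-IP over Input gave -4.39 with a standard error of 1.35, which missed the threshold (adjusted p = 0.0980, and 0.0582 with the replicate block) but passed without the filter (0.0309), in DESeq2 (0.000413), in edgeR's exact test (0.0253) and with all 9 libraries in 1 fit (0.0290), and Nrp1-IP over DCC-IP gave 1.82 with a standard error of 1.45 (adjusted p = 0.614). NRP2, the other neuropilin, had no read in any library.

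The NRP1 call against Input was lost without Nrp1-IP replicate 1 (adjusted p = 0.188), replicate 2 (0.152) or replicate 3 (0.142) and without Input replicate 1 (0.0753) or replicate 2 (0.0878), and held without Input replicate 3 (0.0325). The log2 fold change stayed between -2.87 and -2.18. It was also lost when all 9 libraries shared 1 fit (log2 fold change -2.59, adjusted p = 0.310).

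DCC, the other precipitated receptor, had no read in any of the 9 libraries. Its own mRNA therefore gives no check of the pulldown, and its level was at most that of the floor, including in Input. The study describes the line as one that has both receptors. The counts do not measure DCC protein, whose presence was not tested here. DSCAM, a further netrin receptor, and UNC5D were likewise at 0.

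Plexins transmit semaphorin signals across the membrane, alone or with neuropilins. PLXNA4, a partner of NRP1 in the SEMA3A receptor, was the one plexin over the floor in all 9 libraries, with 200, 60 and 70 counts in Input, 24, 148 and 32 in DCC-IP and 457, 68 and 39 in Nrp1-IP. Nrp1-IP replicate 1 was far above the other 2 of its group, and all groups overlapped (adjusted p = 0.598 to 0.881). PLXNC1 had 6, 7 and 5 counts in Input, 0, 22 and 13 in DCC-IP and 15, 29 and 31 in Nrp1-IP. Its Nrp1-IP libraries all lay above Input without passing the test (adjusted p = 0.345). PLXNA2 and PLXNB2 passed the filter between DCC-IP and Input only, with at most 30 and 18 counts, and PLXNA1, PLXNA3 and PLXNB1 had at most 13, 18 and 10. PLXNB3 had 1 count in all and PLXND1 none.

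SEMA3A, the secreted ligand of the NRP1 and PLXNA4 receptor, had 87, 152 and 199 counts in Input, 1, 44 and 138 in DCC-IP and 15, 45 and 89 in Nrp1-IP. Scaled by TMM, each Input library lay above each pulldown library, at 18.1 ± 6.89 CPM against 4.08 ± 2.64 CPM in Nrp1-IP and 4.39 ± 4.77 CPM in DCC-IP. In CPM without TMM factors, DCC-IP replicate 3 (13.3 CPM) lay above Input replicate 1 (8.15 CPM). Nrp1-IP replicate 3 (8.14 CPM) lay just under the same Input library. With MAP1B also left out of the totals, DCC-IP was at 10.3 ± 11.2 CPM and Input at 15.6 ± 7.31 CPM. Nrp1-IP over Input gave a log2 fold change of -2.08 (standard error 0.67, adjusted p = 0.121), and for DCC-IP over Input the adjusted p was 0.494.

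SEMA3C, a second class 3 semaphorin, had the opposite order in the Nrp1 pulldown. Its counts were 6, 33 and 5 in Input, 13, 133 and 20 in DCC-IP and 189, 71 and 146 in Nrp1-IP. Every Nrp1-IP library lay above every Input library, with 11.7 ± 5.61 CPM against 1.78 ± 1.87 CPM, and DCC-IP overlapped both. Nrp1-IP over Input had a log2 fold change of 2.88 with a standard error of 0.82 (adjusted p = 0.0888), short of the threshold. SEMA3F reached 20 counts in Input replicate 2 and at most 1 elsewhere, SEMA3B had 1 count in all, and SEMA3D, SEMA3E and SEMA3G had none.

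Of the semaphorins held at the membrane, SEMA4D, a ligand of plexin-B receptors, did not separate the groups. It had 7566, 5519 and 7196 counts in Input, 13897, 7396 and 9474 in DCC-IP and 10469, 11379 and 8847 in Nrp1-IP. The groups overlapped at 939 ± 548 CPM, 897 ± 205 CPM and 846 ± 167 CPM, and the adjusted p was 0.812 to 0.898 in the 3 comparisons. SEMA4D shares part of its genomic span with SECISBP2, which had at most 32 counts in a library.

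SEMA5A, a transmembrane semaphorin with thrombospondin repeats, was low in DCC-IP. Its counts were 116, 56 and 72 in Input, 1, 13 and 29 in DCC-IP and 94, 179 and 108 in Nrp1-IP. All DCC-IP libraries lay below all others, at 1.05 ± 0.946 CPM against 11.1 ± 4.65 CPM in Nrp1-IP and 10.2 ± 4.27 CPM in Input. The log2 fold change was 3.20 for Nrp1-IP over DCC-IP (standard error 1.16, adjusted p = 0.190) and -2.99 for DCC-IP over Input (standard error 1.28, adjusted p = 0.216), so neither passed. DESeq2, a second count test, placed both under the threshold (adjusted p = 0.0116 and 0.0193).

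SEMA6A, a transmembrane ligand of class A plexins, had 33, 1 and 73 counts in Input, 4, 156 and 133 in DCC-IP and 0, 25 and 45 in Nrp1-IP, with overlap between all groups and an adjusted p of 0.571 to 0.776. SEMA4B had 0, 1 and 6 counts in Input, 0, 5 and 29 in DCC-IP and 22, 23 and 20 in Nrp1-IP, and its Nrp1-IP libraries lay above Input (adjusted p = 0.309). SEMA4G was uneven in each group, with up to 102 counts in DCC-IP. SEMA4F, SEMA5B and SEMA6D passed the floor in some libraries but not the filter, SEMA4A and SEMA4C stayed at or under 3 counts, and SEMA6B, SEMA6C and SEMA7A had no read.

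**Figure D4:**
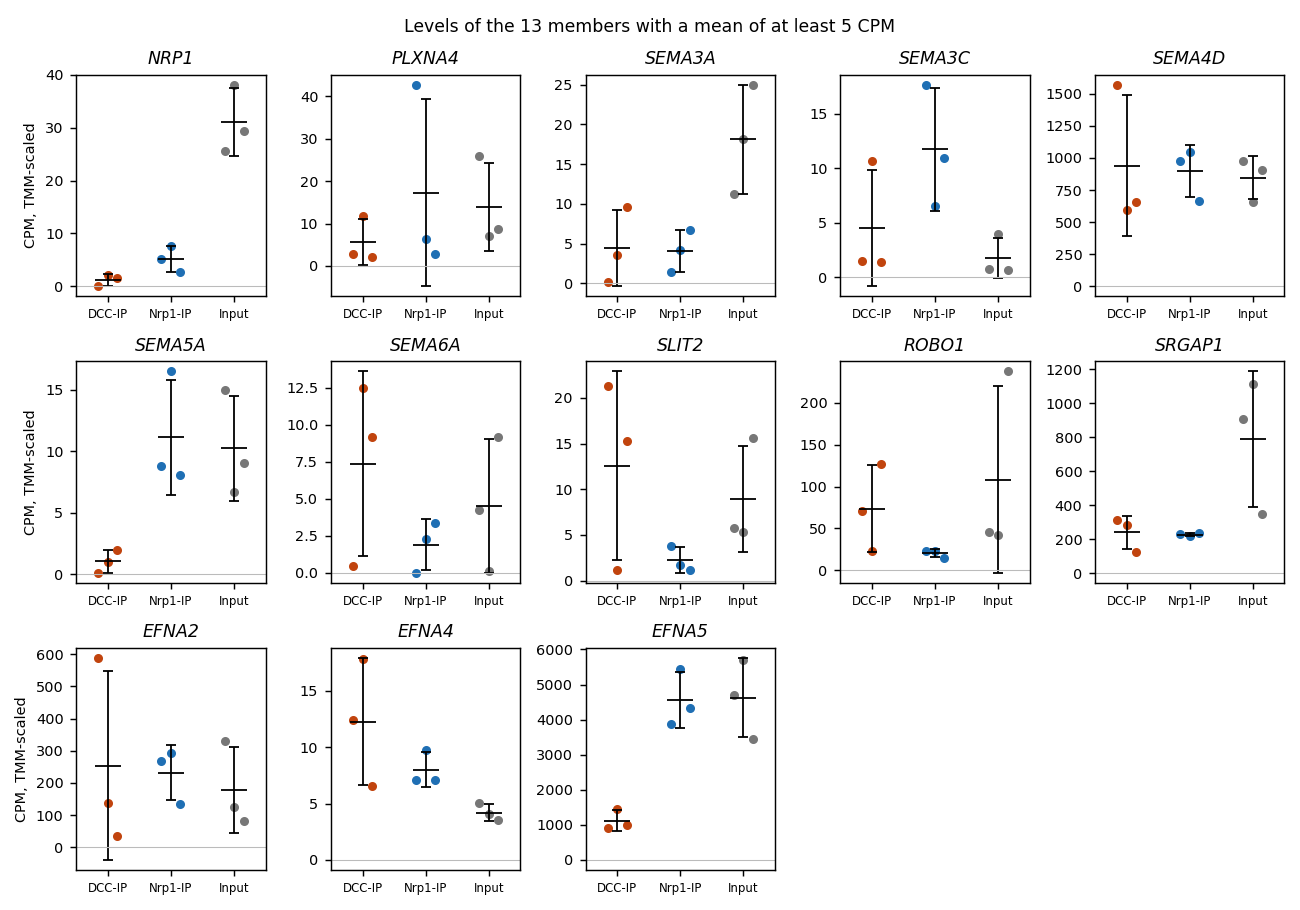
Points give the TMM-scaled CPM of each library for the 13 members with a mean of at least 5 CPM over the 9 libraries, with the mean (long bar) and SD (error bars, n = 3) of each group and a separate axis per gene starting at or below 0. EFNA5 is low in all 3 DCC-IP libraries, NRP1 and SEMA3A are highest in Input, and EFNA2, PLXNA4 and ROBO1 each have a library far above the rest of its group.

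Netrins, the ligands of DCC, were at or near 0 apart from 1 gene. The secreted netrins NTN1, NTN3, NTN4 and NTN5 had no read in any library. NTNG2, a membrane-anchored netrin-G that binds netrin-G ligands and not DCC, had 110, 21 and 79 counts in Input, 71, 8 and 8 in DCC-IP and 45, 2 and 9 in Nrp1-IP, and NTNG1 had at most 2. Replicate 1 was highest in every group, and the groups overlapped.

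Neogenin (NEO1), the receptor closest to DCC, had 2, 10 and 0 counts in Input, 0, 16 and 20 in DCC-IP and 29, 7 and 25 in Nrp1-IP. UNC5C, a repulsive netrin receptor, had 0, 1 and 12 counts in Input, 0, 0 and 10 in DCC-IP and 54, 5 and 14 in Nrp1-IP. UNC5B, of the same family, had 2, 54 and 30 counts in Input, 0, 0 and 3 in DCC-IP and 51, 3 and 41 in Nrp1-IP. NEO1 and UNC5C were over the floor in every Nrp1-IP library and not in every library of the other groups, but the adjusted p of the 3 genes was 0.461 or more in each comparison that tested them. UNC5A never exceeded 3 counts.

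Slits, the secreted repellents, and their robo receptors were represented by 1 gene each above 5 CPM. SLIT2 had 45, 45 and 124 counts in Input, 188, 14 and 221 in DCC-IP and 41, 19 and 15 in Nrp1-IP. On the TMM scale Nrp1-IP lay below Input in every library, at 2.24 ± 1.42 CPM against 8.92 ± 5.78 CPM. DCC-IP (12.6 ± 10.3 CPM) overlapped both, with its replicate 2 at the low end. In CPM without TMM factors, replicate 1 of Nrp1-IP and replicate 1 of Input were level at 4.22 CPM. SLIT2 had a log2 fold change of -1.95 for Nrp1-IP over Input (standard error 0.78, adjusted p = 0.196) and -2.55 for Nrp1-IP over DCC-IP (standard error 1.13, adjusted p = 0.287). SLIT3 had at most 18 counts and SLIT1 none.

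ROBO1, a slit receptor, was likewise lowest in Nrp1-IP. It had 352, 355 and 1889 counts in Input, 628, 282 and 1838 in DCC-IP and 242, 251 and 196 in Nrp1-IP. Nrp1-IP libraries were close to one another (20.2 ± 4.72 CPM) and below every Input library, while replicate 3 stood high in both DCC-IP (73.5 ± 52.3 CPM) and Input (108 ± 112 CPM). ROBO1 gave -2.41 on the log2 scale for Nrp1-IP over Input (standard error 0.77, adjusted p = 0.115) and -1.97 for Nrp1-IP over DCC-IP (standard error 0.65, adjusted p = 0.147). Without Input replicate 3 and without DCC-IP replicate 3 in turn, the first moved to -1.19 and the second to -0.91. ROBO2 and ROBO3 had at most 2 and 8 counts, and ROBO4 had none.

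The srGAPs carry the robo signal to small GTPases. SRGAP1 had 7025, 9346 and 2747 counts in Input, 2746, 3511 and 1819 in DCC-IP and 2469, 2351 and 3119 in Nrp1-IP. Scaled by TMM, every pulldown library lay below every Input library, and Input replicate 3 was the nearest to the pulldowns. The levels were 239 ± 99.3 CPM in DCC-IP, 227 ± 9.35 CPM in Nrp1-IP and 789 ± 398 CPM in Input. In CPM without TMM factors, DCC-IP replicate 2 (318 CPM) lay above Input replicate 3 (311 CPM). With MAP1B also left out of the totals, DCC-IP was at 484 ± 185 CPM and Input at 647 ± 318 CPM. The log2 fold change was -1.64 for DCC-IP over Input (standard error 0.52, adjusted p = 0.104) and -1.68 for Nrp1-IP over Input (standard error 0.40, adjusted p = 0.0553). With the replicate block SRGAP1 passed in DCC-IP over Input (log2 fold change -1.54, adjusted p = 0.0075), which took the members called there from 1 to 2. Without Input replicate 3 it passed in both, at -2.04 (adjusted p = 0.0306) and -2.22 (adjusted p = 0.00200).

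SRGAP2 had 0, 12 and 30 counts in Input, 35, 22 and 197 in DCC-IP and 5, 23 and 42 in Nrp1-IP, and its value is uncertain because near-identical copies of the gene exist in the human genome and reads that fit several places are not counted. SRGAP3 had at most 49 counts. L1CAM, an adhesion molecule that works with NRP1 in the response to SEMA3A, had 0, 7 and 0 counts in Input, 0, 18 and 9 in DCC-IP and 0, 0 and 9 in Nrp1-IP and was not tested.

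Genes that act with or below these receptors were read beside the members, on a list chosen with earlier results of these data known. The list held 110 co-factors and intracellular effectors, of which 51, 45 and 42 had enough reads to be tested between the pulldowns, in DCC-IP over Input and in Nrp1-IP over Input. In the same order, 20, 20 and 22 of the 77 members and 6439, 6223 and 6501 of all 42785 genes were tested. Between the pulldowns 2 passed, both higher in Nrp1-IP, against 3.65% of all genes tested. Against Input 4 passed in DCC-IP and 3 in Nrp1-IP, all lower in the pulldown, against 4.98% and 4.97% of all genes tested. The median log2 fold change of the list was -0.19, 0.58 and 0.17 in the same order.

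ENAH, an actin regulator that acts below DCC and robo receptors, had 21604, 21689 and 13938 counts in Input, 4831, 9518 and 7699 in DCC-IP and 24678, 24399 and 24612 in Nrp1-IP. On the TMM scale DCC-IP was below both other groups in every library. Without TMM factors and with MAP1B left out of the totals, DCC-IP replicate 2 lay above Input replicate 3. The log2 fold change was 1.62 for Nrp1-IP over DCC-IP (standard error 0.33, adjusted p = 0.0286) and -1.81 for DCC-IP over Input (standard error 0.36, adjusted p = 0.0274). ABLIM1, an actin-binding protein linked to netrin signalling, had 46, 66 and 10 counts in Input, 10, 1 and 26 in DCC-IP and 379, 264 and 317 in Nrp1-IP, with a log2 fold change of 4.69 for Nrp1-IP over DCC-IP (standard error 1.05, adjusted p = 0.0429). Nrp1-IP held the highest 3 values of this gene. Each of these calls was lost with some libraries left out: ENAH without Nrp1-IP replicate 1, 2 or 3 (adjusted p = 0.119, 0.174 and 0.0813) and, against Input, without any library but Input replicate 3 (0.107 to 0.177), and ABLIM1 without DCC-IP replicate 1 (0.0811) or Nrp1-IP replicate 1, 2 or 3 (0.257, 0.159 and 0.129). ENAH also lost its call against Input with MAP1B removed (0.0735) and without the filter (0.0823), and ABLIM1 lost its own when libraries were scaled by size only (0.0594).

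CDC42, DPYSL2 and PPP3CA were lower in both pulldowns than in Input. CDC42, a small GTPase, had 27982, 29440 and 22981 counts in Input, 1658, 3522 and 5181 in DCC-IP and 5647, 4502 and 6736 in Nrp1-IP. DPYSL2, which encodes the SEMA3A mediator CRMP2, had 178633, 216416 and 119609 counts in Input, 31748, 26004 and 41309 in DCC-IP and 72895, 40334 and 57065 in Nrp1-IP. PPP3CA, the catalytic subunit of calcineurin, had 55250, 43618 and 31855 counts in Input, 11788, 13130 and 10105 in DCC-IP and 18907, 16221 and 14595 in Nrp1-IP. Input was highest in all of its libraries for the 3 genes. Relative to Input, DCC-IP had a log2 fold change of -3.41 for CDC42 (standard error 0.42, adjusted p = 0.00585), -2.80 for DPYSL2 (0.31, 0.00513) and -2.31 for PPP3CA (0.33, 0.00884). In Nrp1-IP over Input it was -2.71 (0.25, 0.00388), -2.01 (0.31, 0.0173) and -1.83 (0.32, 0.0240).

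The same calls were read with each library left out. In DCC-IP over Input, CDC42 and DPYSL2 lost theirs without DCC-IP replicate 1 (adjusted p = 0.0766 for both) or replicate 2 (0.0975 for both), and PPP3CA without DCC-IP replicates 1, 2 or 3 (0.0888, 0.153 and 0.0743) or Input replicate 1 (0.0650), and also with MAP1B removed (0.0576). In Nrp1-IP over Input, CDC42 lost its call without Nrp1-IP replicates 1, 2 or 3 (0.0915, 0.0898 and 0.0558), and DPYSL2 and PPP3CA without the same libraries (0.0995 to 0.141 and 0.114 to 0.172) or Input replicate 1 (0.0540 for both). Over the whole table, DCC-IP over Input had 310 genes past the threshold with all 6 libraries, 250 without Input replicate 3, and 0 without DCC-IP replicate 1, where 1554 genes still had an unadjusted p under 0.05 in edgeR.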

How the data were processed

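Raw read counts per gene were taken as deposited by the authors, 1 file for each of the 9 libraries. The submitters' processing notes name bcl2fastq, HISAT2 2.1.0, HTSeq 0.11.0 and the hg19 build. The gene annotation and the strand setting are not given in the sources used here, so reads of overlapping or antisense genes cannot be told apart, and reads that fit several places count for no gene. RNA was amplified by PCR without molecular identifiers. The 5 summary lines of each file were left out of totals and tests. They held the reads placed on no gene, and 29.2% to 31.3% of the reads lay on genes. The files give symbols only. Gene spans of another build in RefSeq served only to name genes that overlap the most abundant members, and no coordinates are printed. All 77 member symbols were found in RefSeq as protein-coding genes.

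Each comparison was fitted on its own 6 libraries with edgeR 4.0.16 (R 4.3.3, limma 3.58.1) on the counts of all genes that passed filterByExpr (minimum count 10), with TMM factors, the quasi-likelihood test and Benjamini-Hochberg adjustment over all genes tested (threshold 0.05). The standard error is the size of the log2 fold change divided by the square root of the F statistic. Levels are CPM scaled by TMM factors over all 9 libraries, and overlap between groups was read on them. The text names DCC, NRP1, every member called, and every member with a mean of at least 5 CPM with its counts, then examples from each family, and of the effector list every gene called. Alternatives were other scalings (RLE factors, library size, MAP1B removed), other filters, DESeq2 1.42.0, edgeR's exact test, all 9 libraries in 1 fit, the replicate number as a block and each library left out in turn. The fits were tested on simulated counts in which 200 genes had a log2 fold change of 3 in size. At the dispersion (spread between libraries) estimated from these data, the quasi-likelihood test recovered few of them. The shares were 14.5% for Nrp1-IP over DCC-IP, 9.5% for DCC-IP over Input and 35.5% for Nrp1-IP over Input. At a dispersion set to 0.05 they were 98.5%, 100% and 99%. Tables and plots were made with Python 3.11.15, pandas 2.3.3, numpy 2.4.6 and matplotlib 3.10.9.

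Libraries carry replicate numbers, and the labels do not say whether same-numbered libraries belong together. Over 7628 genes the deviations of same-numbered DCC-IP and Input libraries from their group means correlated at 0.117, 0.187 and 0.421. Input replicate 1 correlated better with DCC-IP replicate 2, at 0.136. These values do not settle whether the samples are paired, so the main fits left the numbers out and the block served as an alternative. The members, the marker lists, the effector list and the tests were chosen with earlier results of these data known.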

Additional observations from a re-analysis of the deposited data

How the results depend on the processing

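Only 25 of the 77 members had enough reads for any of the 3 tests, and 15 others with over 3 counts in some library did not. Why these 15 fell short was not tested. For the members tested, the spread between libraries was wide. Members called between Nrp1-IP and DCC-IP numbered 1 with all 6 libraries, 2 with DESeq2 (SEMA5A added) and 0 to 1 with a library left out. Between DCC-IP and Input they numbered 1, and 0 with MAP1B removed (3 members had an unadjusted p under 0.05 in edgeR, and DESeq2 called 3), 2 without the filter, 2 with at least 10 counts in every library, 3 with DESeq2, 2 with edgeR's exact test, 3 with all 9 libraries in 1 fit, 2 with the replicate block and 0 to 2 with a library left out. Between Nrp1-IP and Input they numbered 1, and 2 with RLE factors, 5 without the filter, 3 with at least 10 counts in every library, 5 with DESeq2, 4 with the exact test, 0 with all 9 libraries in 1 fit (5 members had an unadjusted p under 0.05 in edgeR) and 0 to 2 with a library left out, where fewer libraries were fitted. For the other changes the cause was not tested.

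The replicate block called 1 member between Nrp1-IP and DCC-IP, the same count as without it, and 3 between Nrp1-IP and Input (NRP1, SEMA3A and SRGAP1). In these 2 comparisons, as in DCC-IP over Input, the labels give the samples only a shared number. Correlations of same-numbered libraries were 0.0989, 0.113 and 0.361 for Nrp1-IP with DCC-IP, where every library correlated best with its own number, and 0.215, -0.0043 and 0.364 for Nrp1-IP with Input, where that was not so.

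Members present in every library of a group were 12 in DCC-IP and 21 when 2 of 3 libraries sufficed, with 12 to 21 over the leave-outs, and in Input 16 and 25. The summed level of the members in DCC-IP moved from 2849 to 5462 CPM with library totals taken without MAP1B. The EFNA5 log2 fold change of Nrp1-IP over Input, 0.08, changed sign with RLE factors (-0.12), without the filter (-0.02), with DESeq2 (-0.12) and with all 9 libraries in 1 fit (-0.02), and ran from -0.26 to 0.18 with a library left out. Every other log2 fold change given for a member kept its sign under all alternatives that could be fitted. The alternatives for the effector and BMP receptor genes were added after seeing the data.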

Other observations

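Receptors for other cues that steer axons were read after the guidance members, with lists chosen after seeing the data. Of the 6 BMP receptor genes, BMPR1A, BMPR1B and ACVR2A were over 3 counts in all 9 libraries. BMPR1B, a type I receptor, had 2222, 2962 and 2008 counts in Input, 9994, 9068 and 8762 in DCC-IP and 2498, 3175 and 3442 in Nrp1-IP. All DCC-IP libraries lay above all others, with a log2 fold change of -1.79 for Nrp1-IP over DCC-IP (standard error 0.34, edgeR adjusted p = 0.0214) and 1.55 for DCC-IP over Input (standard error 0.35, adjusted p = 0.0406). Against Input the call was lost with every library left out (adjusted p = 0.0564 to 0.195) and under 5 other settings, among them MAP1B removed (0.0716) and DESeq2 (0.0533). Between the pulldowns it was lost with every library left out but DCC-IP replicate 3 (0.0587 to 0.311).

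ACVR2A, a type II receptor, had 10037, 9563 and 6646 counts in Input, 3587, 2767 and 2026 in DCC-IP and 4045, 4228 and 3608 in Nrp1-IP. Input was highest in all 3 libraries. The log2 fold change was -2.04 for DCC-IP over Input (standard error 0.40, edgeR adjusted p = 0.0274) and -1.57 for Nrp1-IP over Input (standard error 0.29, adjusted p = 0.0295). With a library left out, both held without Input replicate 3 and were otherwise lost, with adjusted p up to 0.285 and 0.181, and the first was also lost with RLE factors (0.0636), with MAP1B removed (0.116) and without the filter (0.114), and the second with all 9 libraries in 1 fit (0.0844).

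Among 22 Wnt and planar polarity receptor genes, 6, 4 and 5 were tested and none passed in edgeR. FZD4, a frizzled receptor, had 167, 231 and 196 counts in Input, 6, 123 and 124 in DCC-IP and 609, 469 and 620 in Nrp1-IP, with every Nrp1-IP library above the rest (unadjusted p = 0.0155 against DCC-IP and 0.0165 against Input). LRP6, its co-receptor, had 59, 13 and 50 counts in Input, 329, 129 and 287 in DCC-IP and 108, 35 and 105 in Nrp1-IP (unadjusted p = 0.0459 for Nrp1-IP over DCC-IP and 0.0406 for DCC-IP over Input). ALK, a receptor kinase known from neuroblastoma, had 0, 13 and 1 counts in Input, 225, 126 and 52 in DCC-IP and 31, 49 and 21 in Nrp1-IP, on the scaled values DCC-IP and Nrp1-IP overlapped (unadjusted p = 0.0475 against Nrp1-IP and 0.0229 against Input, neither past adjustment).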
